A study of Mus musculus with 74 samples.

Results

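The genes described here encode 10 peptide hormones and granins of the gut and the pancreatic islet: Sst, Ppy, Pyy, Gcg, Gip, Cck, Ghrl, Chga, Chgb and Calca. They were taken by symbol from the 6 deposited count tables of the series, and all 10 were listed in every table, out of 17853 genes listed in at least 1. All 10 also passed the low-count filter in each table, so no member was lost before testing. The libraries were made by a 3′-end RNA-seq method (MARS-seq) from mTEChi, sorted medullary epithelial cells of the thymus that carry much MHC class II on their surface, taken at an age of 4 to 7 weeks. The study asked what single amino acid changes and a stop mutation in Aire do when they are present on 1 or on both chromosomes.

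Of 74 libraries, 73 were assigned to 21 groups from their titles or genotype labels. On the C57BL/6 background the null line had 3 Aire +/+, 5 +/- and 4 -/- libraries. The Y86C line, on the same strain, had 3 +/+, 3 +/Y86C and 3 Y86C/Y86C libraries. The C313X line had 3 +/+, 2 +/C313X and 3 C313X/C313X libraries. The C442G line had 3 +/+, 5 +/C442G and 6 C442G/C442G libraries. On the NOD background the V303M line had 3 +/+, 3 +/V303M and 3 V303M/V303M libraries. The other NOD libraries shared 1 table, with 3 +/- and 3 -/- libraries of the null line, 5 +/+ and 4 +/C313Y libraries of the C313Y line, and a further set of 3 +/+ and 3 -/C313Y libraries, in which the mutant copy faced a null copy. Of the 5 +/+ libraries of the C313Y line, 2 carry C313T in their titles. The labels do not say whether libraries of 1 group came from separate mice, and the p-values below therefore measure the spread between libraries. The NOD -/- libraries were compared with the NOD +/- libraries, because no +/+ library of the shared table has their form of title.

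AIRE is a transcriptional regulator that lets medullary thymic epithelial cells transcribe a large number of genes whose products otherwise belong to single peripheral tissues, so that developing T cells meet those antigens in the thymus. Hormones of the islet and the gut are textbook examples of such tissue-restricted antigens, and loss of AIRE function in people causes an autoimmune syndrome that affects endocrine organs and, in some patients, the enteroendocrine cells of the gut. The members differ in their usual source. Sst encodes somatostatin of delta cells and gut D cells, Ppy pancreatic polypeptide, Pyy peptide YY of the distal gut, Gcg proglucagon, Gip the incretin of duodenal K cells, Cck cholecystokinin of I cells and neurons, and Ghrl ghrelin of the stomach. Chga and Chgb encode chromogranins, the acidic proteins packed into hormone granules, and Calca encodes both calcitonin and the alpha form of calcitonin gene-related peptide (CGRP), made by alternative splicing.

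The 10 genes lie on 7 chromosomes in mouse build mm10 (GENCODE vM21 annotation), and all are annotated as protein coding. Ppy (chr11:102099930-102101319) and Pyy (chr11:102106676-102107832) are neighbours on the minus strand, 5356 bases apart. Gip is on the same chromosome at chr11:96024545-96030831. Sst is at chr16:23889573-23890958, Gcg at chr2:62474530-62483650 and Cck at chr9:121489824-121495694. Ghrl is at chr6:113716119-113719880, Chga at chr12:102554969-102565028 and Chgb at chr2:132781278-132795079. Calca lies at chr7:114631478-114636357, and its paralogue Calcb starts 82285 bases away on the same chromosome, on the opposite strand.

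The promoters of 5 members are shown because these genes mark the range of what was measured. Ppy and Pyy were called lower in all 6 comparisons without a wild-type allele other than V303M/V303M, and Sst in 5 of them. Chga and Calca were called lower in some lines and not in others. Each sequence is from RefSeq (GRCm38.p6, the mm10 assembly) and covers 250 bases before and 50 bases after an annotated start, on the gene's own strand. Capitals mark the cAMP response element TGACGTCA or the TATA motif TATAAA, each searched on both strands. The windows are chr16:23890795-23891094 (minus) for Sst, chr11:102101270-102101569 (minus) for Ppy, chr11:102107783-102108082 (minus) for Pyy, chr12:102554691-102554990 (plus) for Chga and chr7:114636308-114636607 (minus) for Calca.
Sst: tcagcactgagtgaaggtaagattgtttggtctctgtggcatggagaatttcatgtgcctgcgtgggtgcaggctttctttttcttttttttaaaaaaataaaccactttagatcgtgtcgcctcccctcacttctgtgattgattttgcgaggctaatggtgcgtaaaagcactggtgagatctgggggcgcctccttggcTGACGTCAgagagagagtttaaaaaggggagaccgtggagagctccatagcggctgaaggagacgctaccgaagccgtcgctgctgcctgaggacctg
Ppy: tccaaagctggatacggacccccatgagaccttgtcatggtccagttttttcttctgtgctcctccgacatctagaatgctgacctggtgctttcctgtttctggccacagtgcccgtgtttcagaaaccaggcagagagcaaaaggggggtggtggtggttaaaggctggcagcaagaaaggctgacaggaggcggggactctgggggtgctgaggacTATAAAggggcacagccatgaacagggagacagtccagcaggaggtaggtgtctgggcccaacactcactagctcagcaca
Pyy: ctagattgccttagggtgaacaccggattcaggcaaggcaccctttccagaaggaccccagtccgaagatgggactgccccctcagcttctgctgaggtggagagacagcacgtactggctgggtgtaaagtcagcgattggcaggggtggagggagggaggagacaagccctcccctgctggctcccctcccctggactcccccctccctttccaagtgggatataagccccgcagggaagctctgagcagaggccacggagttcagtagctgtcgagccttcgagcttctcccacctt
Chga: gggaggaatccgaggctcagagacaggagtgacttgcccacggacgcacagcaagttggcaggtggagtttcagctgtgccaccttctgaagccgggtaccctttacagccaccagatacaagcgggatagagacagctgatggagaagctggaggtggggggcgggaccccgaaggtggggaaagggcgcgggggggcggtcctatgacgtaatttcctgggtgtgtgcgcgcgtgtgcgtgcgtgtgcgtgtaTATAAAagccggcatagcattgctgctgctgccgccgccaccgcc
Calca: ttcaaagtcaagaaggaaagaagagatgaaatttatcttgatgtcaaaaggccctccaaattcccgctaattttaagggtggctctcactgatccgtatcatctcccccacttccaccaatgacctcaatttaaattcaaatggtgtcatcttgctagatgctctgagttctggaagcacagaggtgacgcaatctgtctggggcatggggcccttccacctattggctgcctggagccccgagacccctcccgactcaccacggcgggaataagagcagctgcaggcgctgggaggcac
The palindrome TGACGTCA was present in the windows of 2 of the 10 members, Sst (48 bases before the start) and Chgb (72 bases before it), and in 1.85% of 27026 promoter windows of the same length. TATAAA was present in those of 3 of the 10, Ppy (31 bases before the start), Gcg (72 and 24 bases before it) and Chga (5 bases after it), and in 14.2% of all windows. Distances are counted from the RefSeq start of the window, which can differ from the gene start given above. For Chgb it was chr2:132781642 against chr2:132781278, and for Chga chr12:102554941 against chr12:102554969. These matches describe letters in the windows and nothing about factor binding.

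Library totals ranged from 1016619 to 7225403 counts in the V303M table and from 1087464 to 4189258 in the other 5. Levels are given in CPM (counts divided by the library total and multiplied by 1000000), and at this depth the lowest hormone levels below rest on single counts. Aire itself was not called lower in any group without a wild-type allele. In the 6 such comparisons other than V303M/V303M it stood at 140.5% to 210.9% of its reference and was called higher in 6 of 6 by edgeR's quasi-likelihood test. In V303M/V303M it was at 119% of +/+ and was not called (adjusted p = 0.797, edgeR). A 3′ tag need not lie in the altered part of the gene, so this value does not check the null genotypes. The 11 mTEChi markers were listed in every table, with summed levels of 34630 to 86090 CPM, against 24.5 to 168.6 CPM for the thymocyte markers and 382.1 to 1549 CPM for the macrophage and dendritic cell list, whose Xcr1 was listed in no table. The mTEChi sum differed by genotype, with 58940 to 63770 CPM in Y86C/Y86C against 34630 to 39830 CPM in +/+. There 7 of 11 genes were called higher and 3 lower, beside 21.7% and 27.9% of all genes. In C313X/C313X the sum overlapped that of +/+ (58610 to 75560 against 48190 to 65810 CPM). Summed cortical thymic epithelial markers were higher in the mutants, for example 3882 to 4922 CPM in C57BL/6 -/- against 2073 to 2098 CPM in +/+. Not all genes of that list rose. Called higher were 2 of 3 tested in C57BL/6 -/-, 2 of 5 in C442G/C442G and 1 of 5 in NOD -/-, and 0 were lower. The shares of all genes called higher there were 17.7%, 19.5% and 4.21%. Th and Dbh, enzymes of catecholamine synthesis that mark chromaffin cells, moved with the hormones. Th was called lower in the same 6 comparisons and Dbh in 5 of them, for example Th at 0.42 ± 0.435 CPM (SD, n = 4) in C57BL/6 -/- against 18.1 ± 3.97 CPM (n = 3) in +/+. Summed tuft cell markers were at 23.8 to 70.3 CPM in Y86C/Y86C against 146.7 to 170 CPM in +/+, with 4 of 4 tested genes called lower, and at 62.9 to 119.5 CPM in C442G/C442G against 144.6 to 219.3 CPM, with 3 of 5 called lower. In C57BL/6 -/- they were at 153.7 to 218 CPM against 107.6 to 148.5 CPM. Fibroblast and endothelial markers, without the unlisted Pdgfra, were at 9.995 to 12.5 CPM in Y86C/Y86C against 108 to 134 CPM in +/+. There 2 of 3 tested genes were called lower, beside 27.9% of all genes. In C57BL/6 -/- 2 of 3 tested were called higher and 1 lower, beside 17.7% and 18.9% of all genes. In C313X/C313X 0 of 3 were called. Thyroid and parathyroid markers were at 20.03 to 66.45 CPM over all libraries. The part of these cell types in the results below was not tested. In bulk libraries, fewer cells that express a hormone and less RNA in each of them cannot be told apart.

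In mice without a wild-type Aire allele, other than V303M/V303M, most of the hormone genes fell far below their reference. The 6 comparisons of this kind are the ones meant below wherever 6 are counted. A gene was called when its Benjamini-Hochberg adjusted p over all genes of the table was under 0.05. Where groups are said below not to overlap, this is a description only. The share of all genes without overlap was not counted. In C57BL/6 -/- libraries 9 of 10 members were lower than in +/+ and none was higher, with a median log2 change of -3.14, while 18.9% of the 12700 genes tested were lower and 17.7% higher. In Y86C/Y86C all 10 were lower (median -5.64; 27.9% of genes lower, 21.7% higher). In C313X/C313X 7 of 10 were lower (median -4.02; 15.2% lower, 7.85% higher). In C442G/C442G 9 of 10 were lower (median -4.86; 23.1% lower, 19.5% higher). NOD -/- libraries had 8 of 10 lower than NOD +/- (median -3.53; 9.11% of genes lower, 4.21% higher). In NOD -/C313Y 9 were lower and 1, Chga, was higher (median -3.54; 12.9% lower, 9.83% higher). The median log2 change over all genes tested lay between -0.03 and -0.0021 in these 6 comparisons. In V303M/V303M 0 of 10 members were called by edgeR or DESeq2, 2 of 10 (Chga and Ppy) were lower at an unadjusted p under 0.05, and 0.0511% of genes were called lower.

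**Figure D1:**
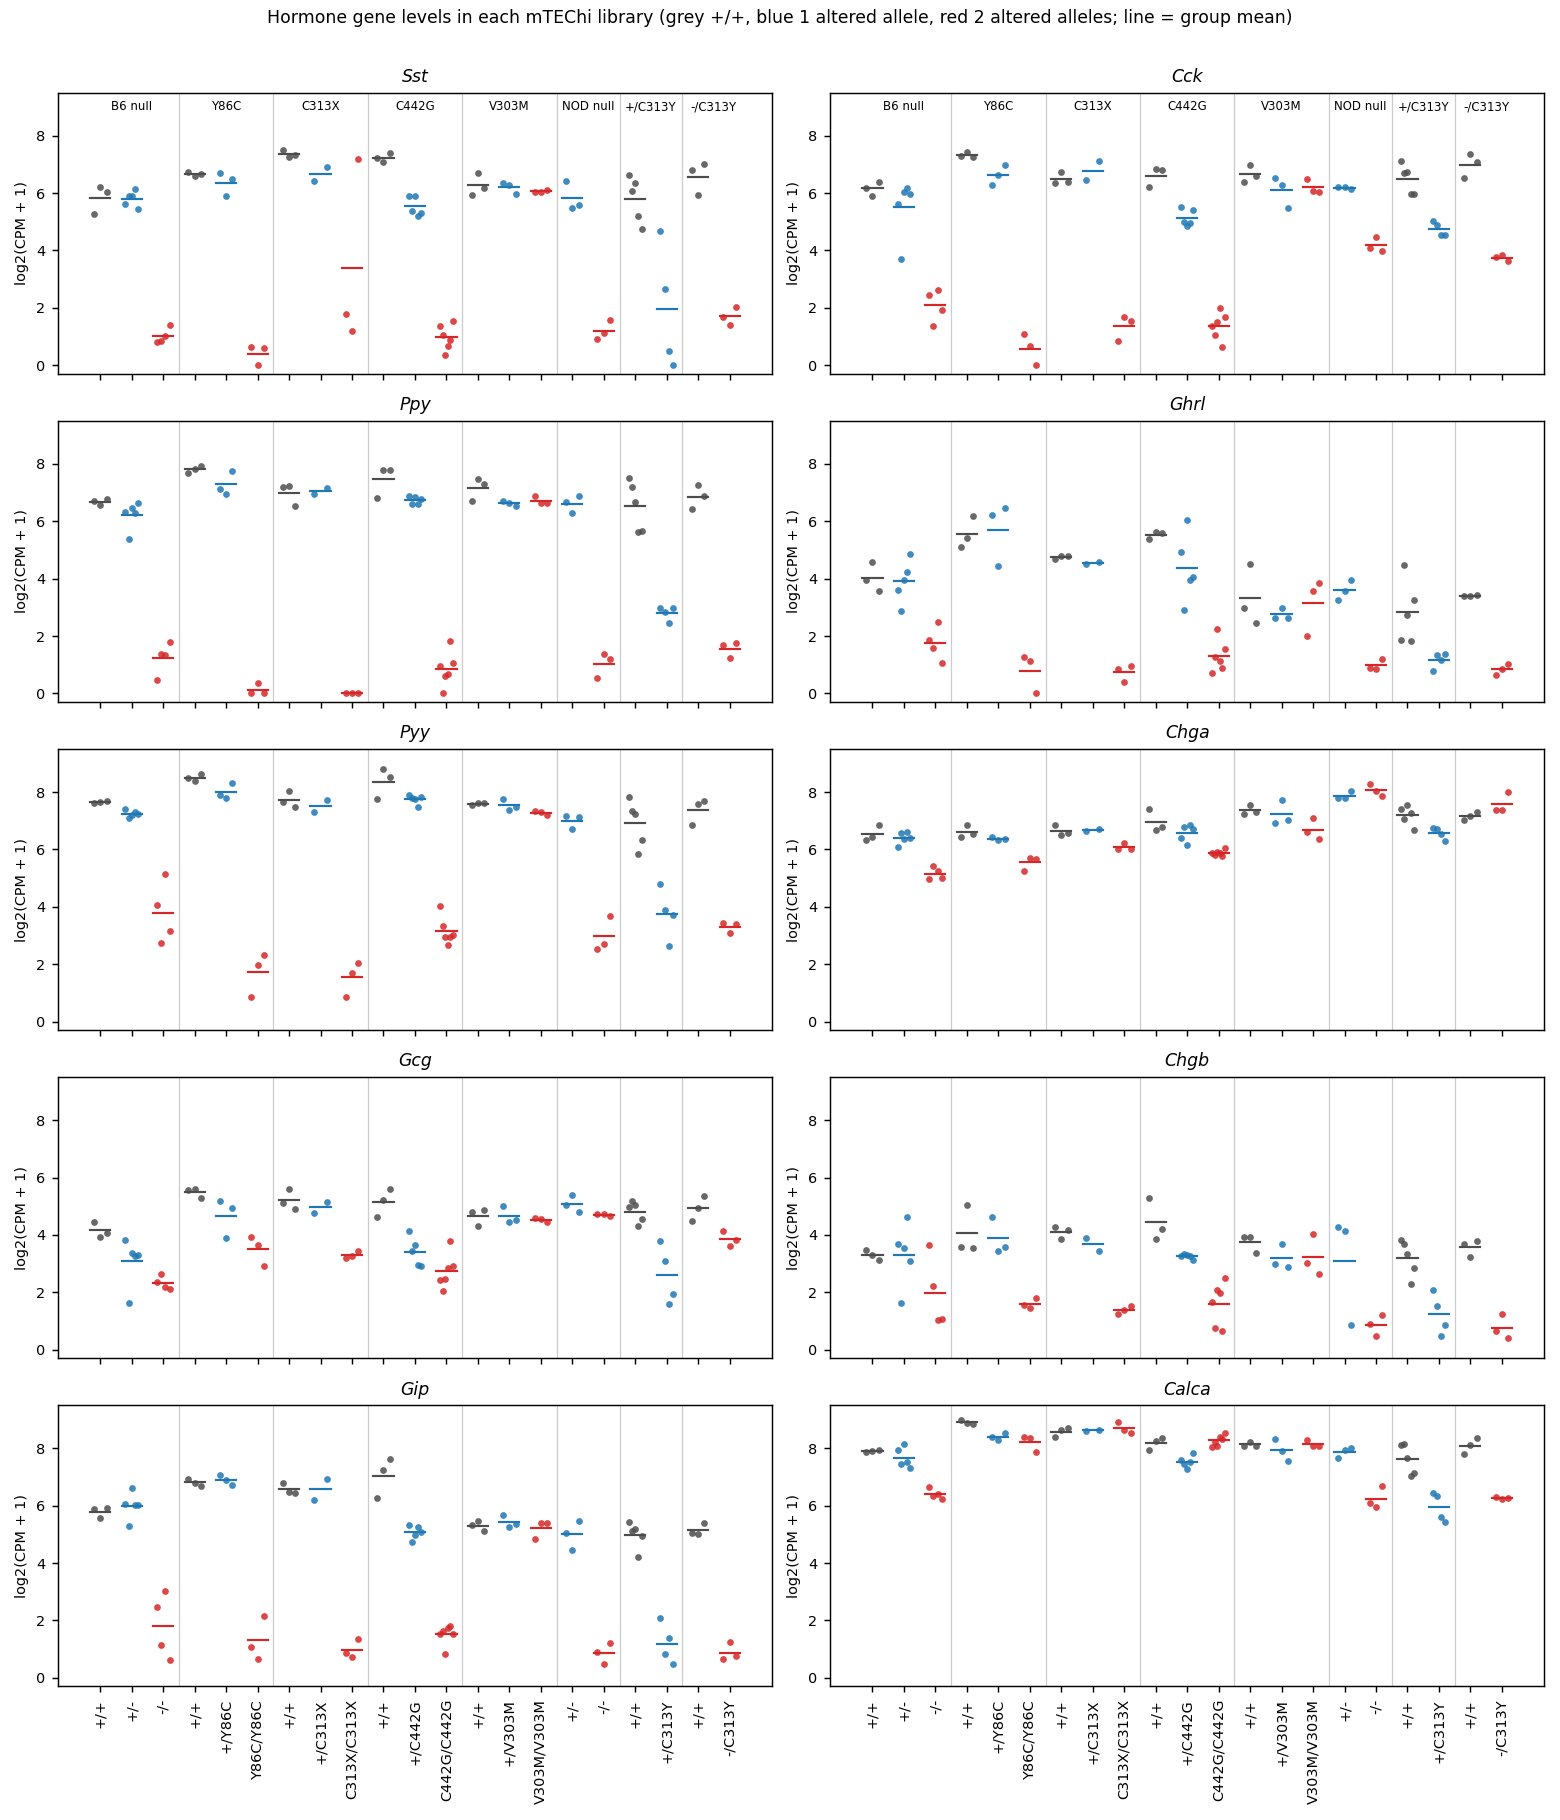
Level of each hormone gene in every assigned library, as log2(CPM + 1), by line and genotype; points are libraries and the line is the group mean. Outside V303M, Ppy, Gip and Cck libraries without a wild-type allele lie below all of their references, V303M/V303M libraries lie beside theirs, and 1 C313X/C313X library stays at the wild-type level of Sst.

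Ppy, pancreatic polypeptide, fell in all of these 6 comparisons and kept the smallest share of its reference of the 10 members in each, 0% to 1.69%. On C57BL/6 it was at 104, 94.1 and 109 CPM in the +/+ libraries and at 0.376, 1.60, 1.54 and 2.49 CPM in the -/- libraries (log2 change -5.87 ± 0.36 (SE), adjusted p = 9.97e-09, edgeR). In the C313X line the 3 +/+ libraries had 146, 150.0 and 92 CPM and no C313X/C313X library had a single count. Against a floor of 3 counts over that group, Ppy was at least 421-fold lower. In Y86C/Y86C 1 count was found over 3 libraries, which gave a ratio of 2003 with a 95% counting interval of 359 to 79172. The groups did not overlap in any of these lines. C442G/C442G libraries ranged from 0 to 2.53 CPM with a median of 0.766, against 113, 219.5 and 219 CPM in +/+. NOD -/- libraries were at 0.434, 1.58 and 1.3 CPM against 101, 76.9 and 118 CPM in +/-, and -/C313Y libraries at 2.24, 1.37 and 2.37 CPM against 85, 152 and 117 CPM in +/+.

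Pyy, the neighbouring gene, encodes a peptide of the same family and also fell in 6 of 6 comparisons, to 0.715% to 7.96% of its reference. The +/+ libraries of the C57BL/6 null line were at 194, 199 and 208 CPM, and the -/- libraries at 15.8, 5.61, 34.4 and 8.01 CPM (log2 change -3.67 ± 0.36, adjusted p = 2.72e-05, edgeR). The decrease was larger in 2 other lines. Y86C/Y86C libraries held 0.83, 2.94 and 3.99 CPM against 360.3, 331 and 395 CPM in +/+, and the change exceeded that of the null line by -3.23 ± 0.63 on the log2 scale (adjusted p = 0.00511, edgeR, 1 fit over the 4 C57BL/6 lines). C313X/C313X libraries held 0.81, 2.24 and 3.17 CPM against 202, 265 and 176 CPM, a difference from the null line of -2.77 ± 0.64 (adjusted p = 0.0173, edgeR). Both differences lost their call when 1 library was left out, Y86C/Y86C replicate 4 (-2.74, adjusted p = 0.0513, edgeR) and C313X/C313X replicate 1 (-2.37, adjusted p = 0.0762, edgeR). For C442G/C442G the difference from the null line was -1.46 ± 0.45 and was not called (adjusted p = 0.0717, edgeR). On NOD, -/- libraries were at 4.78, 5.53 and 11.7 CPM against 143, 105 and 140 CPM in +/-.

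Sst, somatostatin, fell in 5 of these 6 comparisons. In the C57BL/6 null line +/+ libraries held 37.2, 73.9 and 65.4 CPM and -/- libraries 0.751, 0.802, 1.03 and 1.66 CPM (log2 change -5.52 ± 0.34, adjusted p = 4.90e-11, edgeR). Y86C/Y86C libraries had 0.553, 0 and 0.499 CPM against 105, 96.4 and 102 CPM, 3 counts in all and a ratio of 304 with a counting interval of 104 to 1478. C442G/C442G libraries ranged from 0.267 to 1.90 CPM (median 0.95) against 148, 134 and 167 CPM in +/+. In all 3 lines every library without a wild-type allele lay below every +/+ library. The exception was C313X/C313X, where replicates 1 and 10 held 2.43 and 1.28 CPM but replicate 14 held 145 CPM (459 counts), close to the +/+ libraries at 181, 151 and 158 CPM. With that library the log2 change was -1.56 ± 1.35 and was not called (adjusted p = 0.466, edgeR), and without it the change was -6.16 (adjusted p = 1.87e-05, edgeR). No other member stood out in replicate 14, where Ppy was at 0 and Gip at 1.58 CPM. Summed fibroblast and endothelial markers were 288.9 CPM in this library against 28.9 and 32.6 CPM in replicates 1 and 10 and 135 to 141 CPM in +/+, and their part in the Sst value was not tested. On NOD, -/- libraries held 0.868, 1.19 and 1.95 CPM against 85.2, 43.6 and 47.1 CPM in +/-.

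Gcg, which encodes glucagon and, in the gut, the glucagon-like peptides, kept a larger share of its reference than Sst and Ppy, except in C313X/C313X, where Sst kept more. It was called lower in 5 of 6 comparisons, at 17.6% to 75.7% of its reference. On C57BL/6 the -/- libraries were at 4.13, 5.21, 3.60 and 3.32 CPM against 21.2, 14.2 and 16 CPM in +/+ (log2 change -1.99 ± 0.33, adjusted p = 1.42e-05, edgeR). Y86C/Y86C libraries held 14.4, 11.5 and 6.49 CPM against 46.3, 47.8 and 38.1 CPM, and C313X/C313X libraries 8.10, 8.62 and 9.81 CPM against 34.0, 47.7 and 29.1 CPM. In the NOD null line Gcg was not called. The -/- libraries held 25.6, 25.3 and 24.1 CPM and the +/- libraries 32, 40.5 and 26.5 CPM, a log2 change of -0.24 ± 0.34 (adjusted p = 0.755, edgeR). The difference between this change and that of C57BL/6 -/- against +/- was 0.78 ± 0.52 and was not called (adjusted p = 0.654, edgeR). In -/C313Y Gcg fell by 1.02 ± 0.34 on the log2 scale (adjusted p = 0.0337, edgeR), a call lost when any of 4 libraries was left out: -/C313Y replicate 2 (-0.88, adjusted p = 0.13, edgeR) or 3 (0.0801), or +/+ replicate 2 (-1.03, 0.0607) or 3 (-0.75, 0.196).

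Gip, the incretin of duodenal K cells, fell in 6 of 6 comparisons to 1.07% to 6.12% of its reference. C57BL/6 -/- libraries held 4.51, 1.2, 7.19 and 0.553 CPM against 58.0, 46.7 and 60.3 CPM in +/+ (log2 change -4.11 ± 0.50, adjusted p = 8.72e-05, edgeR). C313X/C313X libraries held 0.81, 0.639 and 1.58 CPM against 109, 88 and 87 CPM. C442G/C442G libraries ranged from 0.8 to 2.53 CPM (median 2.01) against 75.9, 150.0 and 197 CPM. On NOD the -/- libraries had 0.868, 0.395 and 1.3 CPM against 32.3, 21.2 and 43.6 CPM in +/-. In each of these lines all libraries without a wild-type allele lay below all reference libraries.

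Cck, cholecystokinin, also fell in 6 of 6 comparisons, but the remaining level spread from 0.355% of its reference in Y86C/Y86C to 24.2% in NOD -/-. Y86C/Y86C libraries held 1.11, 0.588 and 0 CPM against 154, 172 and 151 CPM in +/+ (log2 change -7.57 ± 0.30, adjusted p = 1.17e-14, edgeR). C57BL/6 -/- libraries held 4.51, 1.60, 5.14 and 2.76 CPM against 72.2, 59.2 and 83.5 CPM. NOD -/- libraries held 16.1, 21.3 and 15 CPM against 73.7, 73.9 and 69.1 CPM in +/- (log2 change -1.88 ± 0.27, adjusted p = 1.89e-05, edgeR). All of these groups were separate. The change in the NOD null line was 1.98 ± 0.58 smaller than in the C57BL/6 null line, each taken against +/-, and this difference was not called (adjusted p = 0.105, edgeR). In -/C313Y 12.6, 13.4 and 11.5 CPM stood against 90.6, 163 and 135 CPM in +/+.

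Ghrl, ghrelin, fell in 6 of 6 comparisons to 1.75% to 16% of its reference. Its levels in +/+ libraries were uneven, for example 6.89, 21.7 and 4.43 CPM in the V303M line and 2.62, 21.4, 5.66, 2.59 and 8.62 CPM in the C313Y line. C57BL/6 -/- libraries held 2.63, 2, 4.62 and 1.11 CPM against 14.6, 23.1 and 10.8 CPM (log2 change -2.62 ± 0.50, adjusted p = 0.000556, edgeR). Y86C/Y86C libraries held 1.38, 1.18 and 0 CPM against 33.1, 42.1 and 71.3 CPM, and C313X/C313X libraries 0.81, 0.319 and 0.949 CPM against 24.8, 26.4 and 26.4 CPM. The groups did not overlap in these 3 lines.

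Chgb was called lower in 5 of 6 comparisons, at 6.81% to 48.6% of its reference. The exception was C57BL/6 -/-, where the library titled Aire_KO_428 held 11.7 CPM and the other 3 held 3.61, 1.03 and 1.11 CPM, against 10.2, 8.87 and 7.73 CPM in +/+. The log2 change was -0.94 ± 0.82 with that library (adjusted p = 0.419, edgeR) and -2.14 without it (adjusted p = 0.0222, edgeR). In Y86C/Y86C the libraries held 1.94, 1.76 and 2.49 CPM against 11.0, 32 and 10.8 CPM. NOD -/- libraries held 0.868, 0.395 and 1.3 CPM, and the +/- libraries 18.5, 16.7 and 0.812 CPM, so that 1 of the 3 +/- libraries lay within the -/- range. The log2 change there was -3.67 ± 0.90 (adjusted p = 0.00647, edgeR), and the call was lost without -/- replicate 405 (-3.26, adjusted p = 0.0518, edgeR).

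Chga fell in 3 comparisons and rose in 1. It was lower in C57BL/6 -/-, with 30.1, 41.7, 37.0 and 31.2 CPM against 79.9, 84.6 and 114 CPM in +/+ (37.6% of the reference, log2 change -1.31 ± 0.14, adjusted p = 2.60e-08, edgeR). It was also lower in Y86C/Y86C (37.4, 51.2 and 49.9 CPM against 85.8, 114 and 91.1 CPM) and in C442G/C442G, where 53.3 to 66.0 CPM (median 57.7) stood against 170, 100.3 and 108 CPM. In C313X/C313X the value was 67.9% of the reference and was not called (adjusted p = 0.124, edgeR). On NOD it was not called in the null line. The -/- libraries held 310, 264 and 232 CPM and the +/- libraries 219, 222 and 260 CPM (log2 change 0.35 ± 0.19, adjusted p = 0.277, edgeR). These +/- libraries lay above both NOD +/+ sets of the shared table. Those held 102 to 186 CPM in the C313Y line and 131 to 159 CPM in the -/C313Y set. In -/C313Y 167, 167 and 253 CPM stood against 131, 142 and 159 CPM in +/+, a rise of 0.56 ± 0.19 (adjusted p = 0.0335, edgeR) that was lost without -/C313Y replicate 3 (0.33, adjusted p = 0.263, edgeR), +/+ replicate 1 (0.49, 0.127) or +/+ replicate 2 (0.56, 0.0748). A fit over the C57BL/6 null and NOD tables, added after the values were seen, tested whether the change from +/- to -/- differed between strains. Chga was the 1 member called, at 1.54 ± 0.24 higher on NOD (adjusted p = 0.000195, edgeR), where 0.571% of 14195 genes were called higher, and it stayed called without any single library, at 1.44 to 1.64. Strain and line cannot be told apart in that test, and its NOD side is taken against the +/- level given above. Against the null line, the change of Chga in C313X/C313X was 1.06 ± 0.24 higher (adjusted p = 0.012, edgeR), a call lost without the +/+ library titled Aire_wt_434 (0.88, adjusted p = 0.055, edgeR).

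Calca fell in 2 of the C57BL/6 lines and was not called in the other 2. In the null line the -/- libraries held 100.3, 80.2, 84.7 and 74.3 CPM against 236, 241 and 243 CPM in +/+, a fall to 35.4% (log2 change -1.40 ± 0.18, adjusted p = 5.89e-05, edgeR). Y86C/Y86C libraries held 338, 324 and 233 CPM against 511, 468 and 464 CPM, a fall to 62.1% (log2 change -0.43 ± 0.11, adjusted p = 0.00149, edgeR), or -0.28 without Y86C/Y86C replicate 9 (adjusted p = 0.0185, edgeR). In C313X/C313X Calca was at 481, 398 and 373 CPM against 338, 397 and 415 CPM (log2 change 0.33 ± 0.16, adjusted p = 0.18, edgeR). In C442G/C442G it ranged from 264 to 374 CPM (median 312) against 244, 302 and 330.2 CPM (log2 change 0.29 ± 0.12, adjusted p = 0.0631, edgeR). The last value crossed the threshold as a rise without C442G/C442G replicate 80 (adjusted p = 0.0383, edgeR) or 84 (0.0451), without +/+ replicate 89 (0.0259), and with no filter on low counts (0.0261). Set against the null line in 1 fit over the 4 lines, the change of Calca was higher in all 3 lines. These 3 differences share the -/- and +/+ libraries of the null line and are not independent. The difference was 1.73 ± 0.22 for C442G/C442G (adjusted p = 5.26e-06, edgeR), 1.81 ± 0.23 for C313X/C313X (6.84e-06) and 1.07 ± 0.23 for Y86C/Y86C (0.00596). Of 14547 genes in that fit, 1.55%, 1.91% and 1.11% were called higher in these 3 differences. The other members called there were Pyy and Chga, described above, with 0.784% of genes lower for C313X/C313X and 0.887% for Y86C/Y86C. On NOD, Calca fell in both comparisons, from 203, 245 and 261 CPM in +/- to 68.2, 60.5 and 102 CPM in -/-, and from 221, 276 and 329 CPM in +/+ to 78.4, 73.7 and 76.8 CPM in -/C313Y.

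Calcb, the paralogue that encodes the beta form of CGRP, rose in all 6 comparisons, in 4 of which Calca fell and in 2 of which Calca was not called. It went from 547 ± 24.0 (SD, n = 3) to 944 ± 86 CPM (n = 4) in the C57BL/6 null line (log2 change 0.89 ± 0.09, adjusted p = 4.69e-09, edgeR). In C442G/C442G it rose from 670 ± 52.2 to 1509 ± 135 CPM and in -/C313Y from 492 ± 15.2 to 1198 ± 68.8 CPM. Calca and Calcb are close paralogues, and how reads that match both were counted is not given in the sources used here, so their levels are uncertain to that extent. Counts per gene also cannot separate the calcitonin and CGRP transcripts of Calca.

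**Figure D2:**
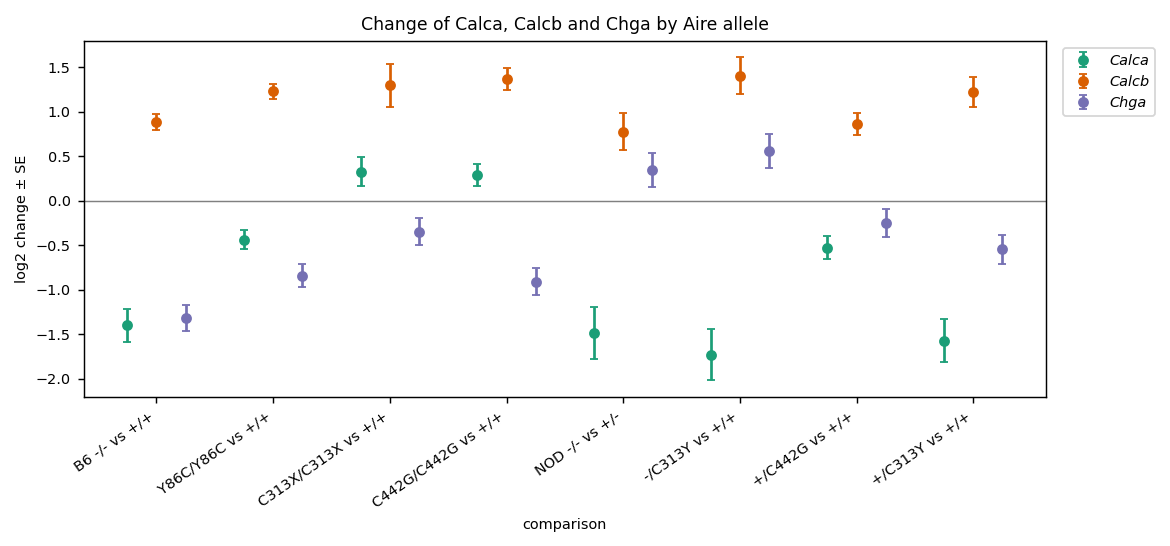
Log2 change (vertical axis) with its standard error for Calca, Calcb and Chga in 8 comparisons (horizontal axis). Calcb lies above 0 throughout, Calca ranges from -1.73 in -/C313Y to 0.33 in C313X/C313X, and Chga is below 0 in the C57BL/6 lines and above 0 in NOD -/- and -/C313Y.

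With 1 wild-type and 1 altered allele the count of called members ran from 0 to 10. None of the 10 members was called in C57BL/6 +/- by edgeR or DESeq2 (1, Gcg, was lower at an unadjusted p under 0.05; 0.102% of genes lower), and their means lay at 49.3% to 124% of +/+. The same count of 0 was found in +/C313X, where none reached an unadjusted p under 0.05 and 0% of 13626 genes were called lower by edgeR, with 228 lower at an unadjusted p under 0.05 and 0 called by DESeq2. In +/V303M 0 members were called, 1 (Ppy) at an unadjusted p under 0.05, and 0% of 13700 genes were called lower by edgeR, with 310 lower at an unadjusted p under 0.05 and 2 called in either direction by DESeq2. In +/Y86C 2 members were lower, Cck (-0.59 ± 0.14, adjusted p = 0.0203, edgeR) and Calca (-0.44 ± 0.11, adjusted p = 0.0217, edgeR), beside 1.04% of genes. The values were 77.7, 98.1 and 125 CPM of Cck against 154, 172 and 151 CPM, and 337, 315 and 370.2 CPM of Calca against 511, 468 and 464 CPM. Both calls rested on few libraries: 0 members were called without +/Y86C replicate 10 or 14 or without +/+ replicate 1 or 2, 1 without +/+ replicate 3, and 4 without +/Y86C replicate 3.

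In +/C442G 7 of 10 members were lower (median log2 change -0.95), beside 13.4% of genes. Gip fell furthest, from 75.9, 150.0 and 197 CPM to 38.9, 25.5, 30.5, 37.0 and 33.0 CPM (log2 change -1.97 ± 0.21, adjusted p = 4.97e-07, edgeR). Sst fell from 148, 134 and 167 CPM to 58.2, 41, 58.0, 35.6 and 38.8 CPM (-1.57 ± 0.16, adjusted p = 3.53e-08, edgeR). For Cck the 5 libraries held 44.9, 31.1, 27.9, 30.1 and 41.3 CPM against 72.5, 114 and 110 CPM (-1.39 ± 0.17, adjusted p = 2.65e-07, edgeR). In these 3 genes every +/C442G library lay between the C442G/C442G and the +/+ libraries. Gcg fell by 1.74 ± 0.33 (adjusted p = 0.000714, edgeR), to 16.5, 9.93, 11.5, 6.68 and 6.47 CPM, and here the fall with 1 copy was near that with both. C442G/C442G libraries were at 3.18 to 12.9 CPM, and the difference from +/C442G was -0.55 ± 0.34 (adjusted p = 0.302, edgeR), or -0.88 without C442G/C442G replicate 92 (adjusted p = 0.0245, edgeR). Smaller falls were called for Chgb (-1.24 ± 0.34), Ppy (-0.67 ± 0.19) and Calca (-0.53 ± 0.13). Those of Chgb and Ppy were lost when 1 +/+ library was left out, for Chgb replicate 86 (-0.69, adjusted p = 0.136, edgeR) and for Ppy replicate 88 (-0.56, 0.0708) or 89 (-0.51, 0.0864). Pyy was not called (-0.54 ± 0.20, adjusted p = 0.063, edgeR) but was without +/+ replicate 86 (-0.76, adjusted p = 0.00108, edgeR), with only the 2 groups in the fit (0.0214) and with RLE size factors (0.0422). Ghrl was not called either (29.3, 6.48, 65.8, 14.6 and 15.7 CPM against 41.1, 48.1 and 47.3 CPM), and without the highest of these, replicate 85, its log2 change was -1.38 (adjusted p = 0.00194, edgeR). Chga in +/C442G was at -0.25 ± 0.16 (adjusted p = 0.253, edgeR), and at 0.037 without +/+ replicate 86.

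Calca differed in order between the 3 genotypes of the C442G line. It was at 244, 302 and 330.2 CPM in +/+, at 192, 174, 155, 184 and 227 CPM in +/C442G, and at 264 to 374 CPM in C442G/C442G, so that the heterozygotes lay below both other groups without overlap. In a comparison of C442G/C442G with +/C442G, added after these values were seen, Calca was 0.81 ± 0.11 higher (adjusted p = 7.19e-07, edgeR), as were 6.4% of genes. In the same comparison 8 members were lower, beside 14.1% of genes, with a median change of -3.95 over the 10.

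Whether the change in heterozygotes differed between alleles was tested directly in the fit over the 4 C57BL/6 lines. Each allele was present in 1 line with its own +/+ libraries, so allele and line cannot be told apart. Between +/C442G and +/-, each against its own +/+, 1 of 10 members was called, Gip, which was lower by 2.24 ± 0.37 on the log2 scale (adjusted p = 0.000318, edgeR), beside 3.51% of 14547 genes lower. C57BL/6 +/- libraries held 65.1, 37.9, 97.9, 64.0 and 64.6 CPM of Gip against 58.0, 46.7 and 60.3 CPM in +/+. For the other members called in +/C442G and not in +/-, the differences were not called, among them Sst (-1.52 ± 0.78, adjusted p = 0.284, edgeR), Cck (-0.95 ± 0.38, 0.145) and Gcg (-0.75 ± 0.49, 0.429). In the C442G table alone the Sst fall was -1.57 (adjusted p = 3.53e-08, edgeR). The shared fit includes C313X/C313X, where Sst ranged from 1.28 to 145 CPM, and no alternative for this difference left those libraries out. The uncalled Sst difference therefore does not show that the alleles acted alike. Between +/Y86C or +/C313X and +/- no member was called by edgeR or DESeq2, none at an unadjusted p under 0.05, and 0% of genes were called lower in either difference by edgeR (264 and 499 at an unadjusted p under 0.05; DESeq2 called 0 and 16 genes in either direction).

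In NOD +/C313Y all 10 members were lower than in +/+ of the same line (median log2 change -2.46), beside 11% of genes lower and 6.36% higher. All 10 were also lower than in NOD +/- (median -2.72; 11.8% of genes lower); the 2 comparisons share the +/C313Y libraries. Gip fell furthest against +/+, to 3.22, 0.76, 1.62 and 0.401 CPM from 42.3, 33.4, 35.8, 17.5 and 29.6 CPM (log2 change -4.21 ± 0.37, adjusted p = 3.17e-09, edgeR). Ppy held 6.80, 6.08, 4.46 and 6.82 CPM against 179, 144, 101, 47.9 and 49.3 CPM (-3.98 ± 0.39, adjusted p = 2.18e-07, edgeR), and Pyy 26.5, 13.7, 5.27 and 12 CPM against 229, 159, 151, 55.7 and 79.5 CPM (-3.09 ± 0.42). None of the +/C313Y libraries reached the +/+ range for these 3 genes. Within both groups the libraries were not alike. Replicates 78 and 80 of +/+ were the lowest pair of their group for Sst, Ppy, Pyy, Gcg, Gip, Cck, Chgb and Calca, and replicates 73 and 75 of +/C313Y the lowest pair of theirs for Sst, Pyy, Gcg, Cck, Chga, Chgb and Calca. Sst had 24.7, 5.32, 0.405 and 0 CPM in +/C313Y against 99.1, 67.1, 81.1, 35.6 and 25.9 CPM in +/+ (-2.85 ± 0.67, adjusted p = 0.00584, edgeR), or -4.86 without +/C313Y replicate 50 (adjusted p = 4.73e-05, edgeR). Against NOD +/- the Sst call was lost without +/- replicate 392 (-2.39, adjusted p = 0.0632, edgeR) and with only the 2 groups in the fit (0.134), and the change was -4.74 without +/C313Y replicate 50.

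Cck, Calca and Gcg in +/C313Y stood at 28%, 31% and 22.8% of +/+. For Cck the libraries held 31.8, 28.5, 22.3 and 22.5 CPM against 137, 104, 106, 61.5 and 61.6 CPM, and for Calca 85.8, 80.2, 47.8 and 42.5 CPM against 276, 284, 203, 130.4 and 141 CPM. Gcg held 12.9, 7.60, 2.03 and 2.81 CPM against 30.1, 35.4, 31.7, 18.8 and 22.8 CPM. Ghrl was at 0.715, 1.52, 1.22 and 1.61 CPM, 15.4% of +/+ (-2.61 ± 0.56, adjusted p = 0.00113, edgeR). Groups did not overlap in these 4 genes. The 2 chromogranins had the highest adjusted p of the 10. Chgb (-2.31 ± 0.65, adjusted p = 0.0137, edgeR) lost its call without +/C313Y replicate 73 (adjusted p = 0.0506, edgeR) and without the +/+ libraries titled C313T (0.0871), and against NOD +/- without +/- replicate 392 (0.0568). Chga held 107, 103, 92.8 and 77.4 CPM against 168, 134, 186, 154 and 102 CPM (-0.54 ± 0.16, adjusted p = 0.0179, edgeR), and its call was lost without +/C313Y replicate 73 (0.0524) or 75 (0.0807), without +/+ replicate 52 (0.0735), and with only the 2 groups in the fit (0.0538). Against NOD +/-, whose Chga level lay above that of both +/+ sets, the Chga change was -1.17 (adjusted p = 2.66e-05, edgeR). Fibroblast and endothelial markers summed to 15.3 to 32.9 CPM in +/C313Y against 44.7 to 103 CPM in +/+. Their part in these changes was not tested.

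A further comparison, added after the values were seen, set the change in -/C313Y against that in +/C313Y, each relative to its own +/+. Chga was the 1 member called, 1.11 ± 0.23 higher in -/C313Y (adjusted p = 0.00735, edgeR; 0.951% of genes higher). The other hormones had fallen in both genotypes, and their differences were not called, for example Sst (-2.48 ± 1.02, adjusted p = 0.271, edgeR), Ppy (-1.76 ± 0.73, 0.267) and Cck (-1.51 ± 0.46, 0.0952).

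No member was called in either genotype with V303M. In V303M/V303M the largest change of a member was that of Chga, with 95.8, 136 and 81.5 CPM against 149, 186 and 157 CPM in +/+ (log2 change -0.61 ± 0.20, adjusted p = 0.481, edgeR). Ppy held 116, 99.7 and 98.0 CPM against 105, 175 and 158 CPM (-0.45 ± 0.17, adjusted p = 0.715, edgeR). Sst held 65.0, 65.4 and 67.2 CPM against 60.6, 104 and 70.7 CPM, Gip 27.8, 41.5 and 41.4 CPM against 39.5, 42.8 and 33.7 CPM, and Calca 313, 271 and 268 CPM against 272, 298 and 272 CPM. Pyy held 163, 156 and 147 CPM against 188, 196 and 193 CPM (-0.27 ± 0.14, adjusted p = 0.893, edgeR). The groups overlapped for Ppy, Sst, Gip and Calca. They did not overlap for 2 of the 10 members, Chga and Pyy, and no share over all genes was counted to set beside this. The standard errors of the 10 log2 changes were 0.14 to 0.55, so small changes were not detectable with 3 libraries a group.

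**Figure D3:**
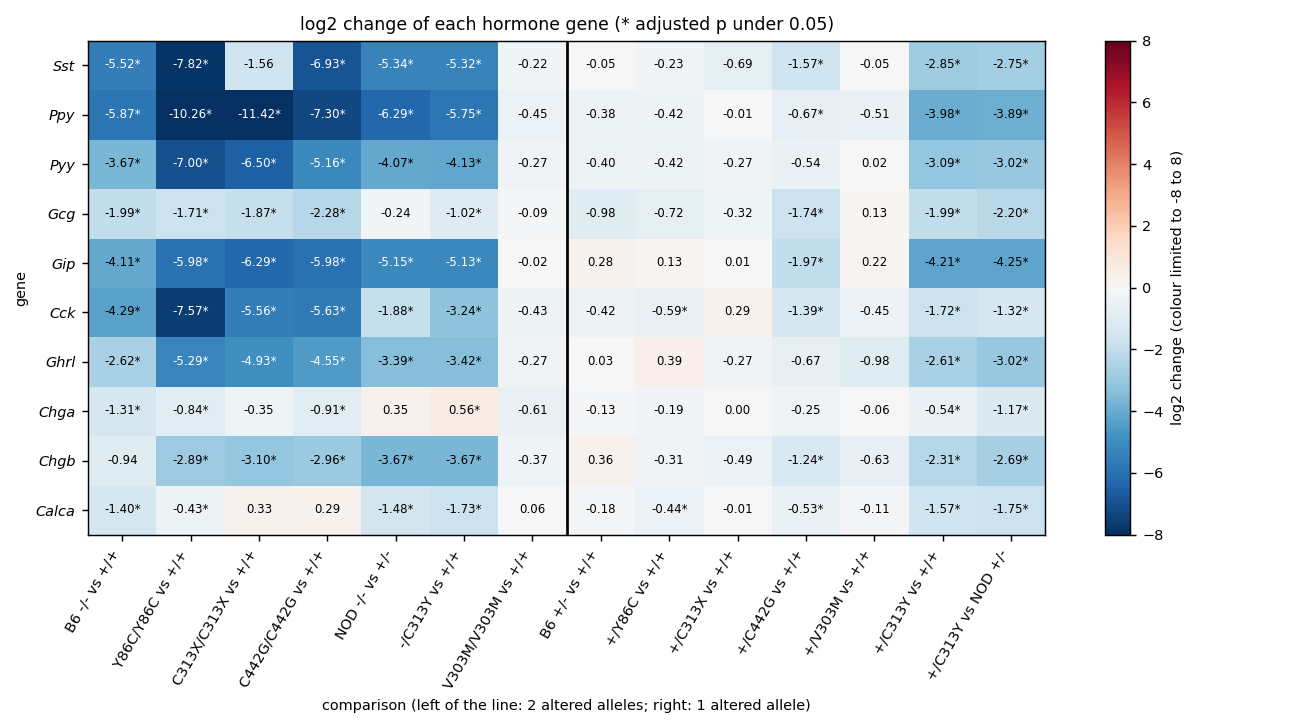
Log2 change of each hormone gene (rows) in 14 comparisons (columns), printed in each cell with an asterisk where the adjusted p was under 0.05; colours are limited to -8 to 8. Columns left of the line have 2 altered alleles and columns right of it 1. Ppy is called in all 6 comparisons without a wild-type allele outside V303M, and +/C442G and the +/C313Y columns are the heterozygotes with 7 or more called members.

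Genes around the same hormones were described from lists. Over all genes tested, 9.11% to 27.9% were called lower and 4.21% to 21.7% higher in the 6 comparisons, and the counts below are to be read against these shares. Of 13 to 14 other gut and islet hormone genes tested, 9 to 12 fell and 1 to 2 rose in each of the 6 comparisons, with medians of -3.92 to -3.08. Ins2 (insulin), Gast (gastrin), Vip (vasoactive intestinal peptide), Npy (neuropeptide Y), Nts (neurotensin) and Iapp (islet amyloid polypeptide) fell in 6 of 6, Ins2 by -5.53 to -10.39 on the log2 scale and Iapp by -2.08 to -2.84. Sct, secretin, was chosen after its values were seen. It was called lower in none of the 6 and higher in 2 by edgeR, with changes of -0.56 to 0.90. In C57BL/6 it was at 137 ± 9.10 CPM in +/+ (SD, n = 3) and 146 ± 22.1 CPM in -/- (n = 4).

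The genes that process or package hormones did not move as a group. Of 11 to 12 tested, 1 to 5 fell and 1 to 5 rose, and the medians lay between -0.02 and 0.37. Scg2, a secretogranin of the same granules as Chga and Chgb, fell in the 5 comparisons in which it was tested (-1.80 to -4.80). Ptprn2, a transmembrane protein of dense-core granules, rose in 6 of 6 (0.86 to 1.62), Vgf, a peptide precursor of dense-core granules, fell in 3 (-1.22 ± 0.16, adjusted p = 3.81e-07, edgeR, in C57BL/6 -/-) and was not called in the other 3. Resp18 rose in 4 and Cadps, a factor for granule exocytosis, in 3. Among 4 to 8 endocrine transcription factors tested, 2 to 4 fell and 1 rose in each comparison. Neurog3, the factor that starts endocrine differentiation in islet and gut, fell in 6 of 6 (-2.57 to -5.91), from 6.26 ± 1.90 to 0.457 ± 0.536 CPM in the C57BL/6 null line. Fev, expressed in enteroendocrine precursors, fell in the 4 in which it was tested. Insm1, another factor of endocrine cells, rose in 6 of 6 (0.51 to 1.18), from 281 ± 19.4 to 462 ± 43.2 CPM in that line.

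The receptors of these hormones were split. Of 7 to 11 tested, 3 to 6 fell and 1 to 3 rose, with medians of -3.05 to -0.70. Gcgr, the glucagon receptor, fell in 6 of 6 (-2.66 to -6.03), as did Calcr, the calcitonin receptor (-2.79 to -4.84), and Ramp2, a receptor activity-modifying protein (-1.90 to -3.11). Calcrl, which forms the CGRP receptor with a RAMP, rose in 6 of 6 (0.89 to 2), and Ramp3 rose in 5. In +/C442G Calcrl rose by 1.37 ± 0.16 (adjusted p = 1.87e-07, edgeR) while Gcgr fell by 1.08 ± 0.32 (adjusted p = 0.0105, edgeR).

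**Figure D4:**
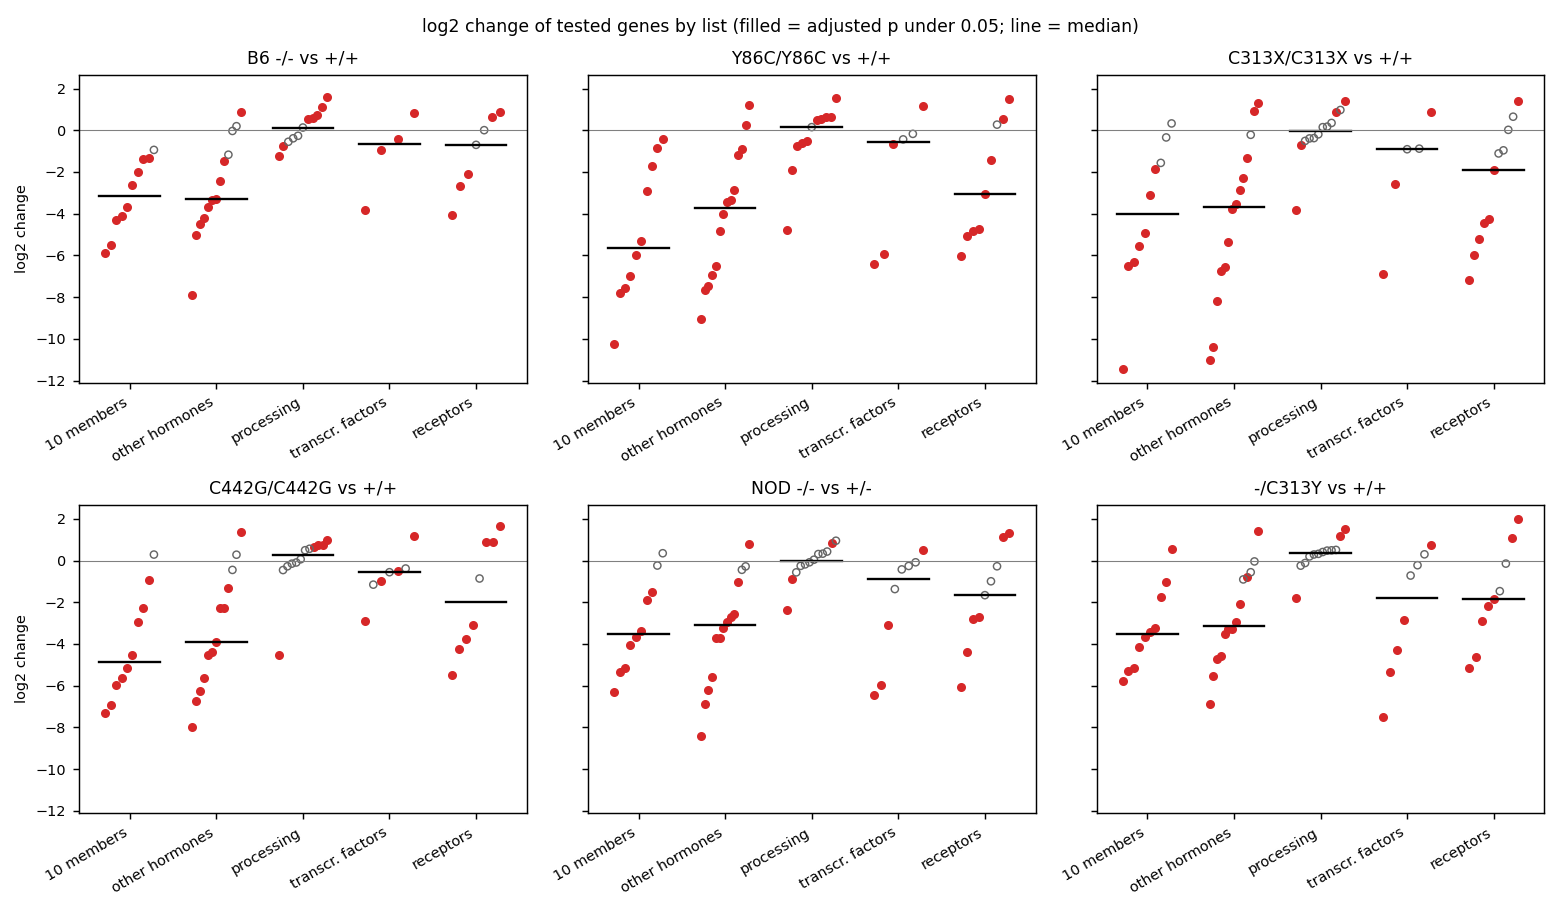
Log2 change (vertical axis) of the tested genes of 5 lists in the 6 comparisons without a wild-type allele other than V303M/V303M; filled points passed an adjusted p of 0.05 and the bar is the list's median. The members and the other hormones centre between -5.64 and -3.08, and the processing and granule genes between -0.02 and 0.37.

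Across the 73 assigned libraries the members varied together to different degrees, which is given as a description, since the libraries share lines and genotypes. On log2(CPM + 1), Pearson's r was 0.973 between the neighbours Ppy and Pyy, 0.937 between Ppy and Gip, 0.908 between Ppy and Sst, and 0.923 between Ppy and Cck. Chga correlated with Ppy at 0.387 and with Calca at -0.127, and Calca with Ppy at 0.39. The genes most like each member were ranked among 11671 genes with a mean of at least 5 CPM. Those of Ppy were Tac2 (0.978), Avp (0.977) and Pyy (0.973), which encode neurokinin B, vasopressin and peptide YY. Gip was most like Prss29 (0.965), Ins2 (0.964) and Alpl (0.962), Cck most like Tff1 (0.957), and Sst most like Igfbp6 (0.933). The highest values were lower for Gcg (Fabp6, 0.799), Calca (Gdf3, 0.807), Chga (Mirg, 0.824) and Chgb (Klk1b4, 0.862), and Ghrl was most like Klk1b5 (0.901).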

How the data were processed

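RNA of 74 mTEChi libraries was measured by MARS-seq. Per the submitters' processing notes, reads were handled with bcl2fastq, cutadapt, STAR 2.4.2a, HTSeq and DESeq2 on mm10, and the authors deposited raw counts per gene and library in 6 tables, which are the values used here. For the NOD table the authors also deposited normalized values (a signal scaled between libraries) and log2 values after ComBat batch correction; these served only to see which libraries shared a correction. The columns fell into 15 and 6 libraries, and each NOD comparison of the main text lies within one of them, except the difference between -/C313Y and +/C313Y.

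Counts were tested with edgeR 4.0.16 (R 4.3.3; robust quasi-likelihood test, TMM, filterByExpr), all groups of a table in 1 fit, with Benjamini-Hochberg adjustment over all genes and a threshold of 0.05. Differences between lines came from 1 fit over the tables concerned, in which the allele and the line that carries it cannot be told apart. The results were recomputed with DESeq2 1.42.0, with RLE factors, with all listed genes, with other wild-type references, with a replicate block, with a fit of only the compared groups, and leaving out each library. Errors are SE for log2 changes and SD for levels, and intervals and floors cover counting error only. The SE was derived from the test, as the size of the log2 change divided by the square root of its F statistic. The counts were also tested on simulated data. Members and lists were chosen with earlier results of these data known. Of other lists, up to 3 called genes per comparison with the smallest adjusted p were named, and for likeness the 3 genes with the highest r. In the -/C313Y set the titles number both groups 1 to 3. For each library, the deviation of log CPM from its group mean was taken gene by gene. These deviations correlated at 0.0638, -0.0398 and 0.163 between same-numbered libraries, so the numbers were not taken as pairs. 1 library, titled wild type and labelled Aire -/-, was assigned to no group. Of 1 marker list only Th and Dbh are reported here.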

Additional observations from a re-analysis of the deposited data

Results flagged for a closer look

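Of 60 tests for an outlying library, 1 for each of the 10 genes in each of 6 groups, 2 found one, and chance flags about 1 in 20 such tests. Gcg was at 12.91 CPM in C442G/C442G replicate 92, far above the other 5 libraries. Gip was at 0.8003 CPM in C442G/C442G replicate 84, below the other 5. That group held 39 counts of Gip over 6 libraries, so counting error is large at this level.

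The changes of 4 genes differed between lines or strains by a test of the difference itself (edgeR). For Gip the change in +/C442G was -2.242 relative to that in +/-. For Calca the change without a wild-type allele exceeded that of the C57BL/6 null line by 1.732 for C442G, 1.073 for Y86C and 1.807 for C313X. For Pyy it was -3.231 for Y86C and -2.767 for C313X. For Chga it was 1.064 for C313X. These differences from the C57BL/6 null line share its libraries and are not independent. Chga also differed between NOD and C57BL/6 null mice by 1.538, and between -/C313Y and +/C313Y by 1.113. All are log2 differences.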

How the results depend on the processing

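For the 100 called changes and differences of single members, 1195 of 1227 alternatives kept direction and call, 32 lost the call, 9 of them in +/Y86C, and 0 reversed. For the 11 changes not called in comparisons with 7 or more called members, 112 of 125 alternatives left them so (1, Sst in C313X/C313X, without an adjusted p from DESeq2), 12 made a call, and 1 reversed: Chga in +/C442G ranged from -0.44 to 0.037 when 1 library was left out. RLE factors moved the median of all genes by at most 0.0682. DESeq2 called 16 genes for +/C313X minus +/-, 2 for +/V303M, 42 for V303M/V303M (9 by edgeR) and 254 for +/Y86C (448 by edgeR), and 6, 3, 4 and 2 members for C313X/C313X, C442G/C442G and Y86C/Y86C minus -/- and for the strain difference. With only the 2 groups fitted, 1384 genes were called in +/C313Y (2402 with all groups), 1 in V303M/V303M, 1 member lower in C57BL/6 +/- and 1 higher in NOD -/-. Without the filter 1 member was higher in C442G/C442G.

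Leaving out 1 library gave 15 to 82 genes called in C57BL/6 +/-, 0 to 1 in +/C313X, 2072 to 2950 in C313X/C313X, 0 to 1 in +/V303M, 0 to 60 in V303M/V303M and 218 to 461 in +/Y86C. For differences from +/- it gave 0 to 297 for +/C313X, 516 to 905 for +/C442G and 0 to 1 for +/Y86C. For differences from -/- it gave 162 to 928 for C313X, 217 to 456 for C442G and 79 to 264 for Y86C, with 95 to 167 for the strain difference and 94 to 319 for -/C313Y minus +/C313Y. Members called higher were 0 to 1 in -/C313Y and in C442G/C442G, members lower 0 to 4 in +/Y86C, and members called 1 to 2 in the differences for C442G, Y86C, strain and -/C313Y, and 2 to 4 for C313X. The causes were not tested. With the replicate block in -/C313Y and only its 2 groups fitted, 3608 genes were called. The fit of all groups without a block called 3138, so the 2 counts differ in more than the block. With the block 9 members were lower and 1 higher, so no member's call changed. Levels near 1 CPM rest on single counts, which limits their precision.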

Other observations

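The library assigned to no group, titled wild type but labelled Aire -/-, held 67.1 CPM of Sst, 116 of Ppy, 207 of Pyy, 20.4 of Gcg, 63.1 of Gip and 113 of Cck. It held 15.9 CPM of Ghrl, 93.9 of Chga, 9.44 of Chgb, 292 of Calca and 2264 of Aire. In the C57BL/6 null line Ppy was at 94.1 to 109 CPM in +/+ and 0.376 to 2.49 CPM in -/-. Sst was at 37.2 to 73.9 and 0.751 to 1.66 CPM. For these genes the library lay far above the -/- range. Chgb, at 7.73 to 10.2 and 1.03 to 11.6 CPM, did not separate the groups. Which label is right was not tested.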
